A study of Mus musculus with 6 samples.

Results

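TRAV6 is a family of alpha chain V genes of the mouse T cell receptor (TCR), and its chains were followed here through the receptors of CD4+ T cells that bind P2, an epitope of the retinal protein IRBP. The chains were chosen by name: every productive TRA contig (the assembled alpha chain transcript of a cell) whose V gene is TRAV6, TRAV6D or TRAV6N, without the gene that is shared with the delta chain locus. There were 81 such contigs in 81 cells among 1123 productive TRA contigs in all, 11 in uveitis dataset 1, 17 in uveitis dataset 2 and 53 in the no uveitis dataset. Each contig was full length, no cell held more than 1 TRAV6 chain, and 80 of them came with a productive TRB, which gave 73 distinct clonotypes (10, 12 and 51). Cells were put in the same clonotype when both chains had the same V gene, the same J gene and the same CDR3 bases, and a clonotype with more than 1 cell was called expanded. A clonotype is thus a pair of an alpha and a beta chain. A cell with more than 1 productive alpha chain was counted in a clonotype for each of them.

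All cells came from mice of 1 genotype, AireGW/+Lyn-/-, which carry a dominant-negative allele of the thymic tolerance gene Aire and lack the kinase Lyn, and were taken from lymph nodes at 9 wk of age. The compared groups differ in whether the mice had developed uveitis: 2 libraries were from mice with the disease and 1 library was from mice without it. Each library pools several animals, and its cells are not assigned to animals. By the paper's account the library without uveitis pooled more mice than either uveitis library. The files used hold receptor contigs and no other genes, so the CD4+ T cell identity set by the tetramer sort was not checked against marker genes.

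The libraries held 212, 365 and 512 cell barcodes in the same order, with 5302, 7439 and 21408 UMIs (unique molecular identifiers, which count transcripts rather than reads) in their contigs. No barcode was shared by the uveitis datasets, and the 1 barcode shared by uveitis dataset 2 and the no uveitis dataset was not that of a TRAV6 cell. No test between the conditions was made, since with 2 pools against 1 an exact permutation test cannot give a p below 0.333. All intervals below are exact 95% binomial (Clopper-Pearson) intervals, which cover counting error and not the spread between animals.

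An alpha chain is made in the thymus by joining a V gene to a J gene, and the join forms CDR3, the loop that reads the peptide held by MHC. Bases are trimmed from both gene ends and others are added without a template. In the mouse reference genome the middle of the V region lies in repeated blocks, so that a gene can have an unlettered copy, a D copy and an N copy, and these can be identical over the whole transcript. Alpha chain genes can go on rearranging on both chromosomes, so a T cell can carry more than 1 productive alpha chain.

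The CDR3 starts that the germline TRAV6 genes supply are few. In the GENCODE annotation of GRCm38, 14 TRAV6 genes lie on the plus strand of chr14:52638515-53517366, and the last 14 bases of their V exons, from the conserved cysteine codon to the 3′ end, took 7 forms. These are shown because they set what can be told of a chain from its CDR3, with capitals where an end differs from that of TRAV6-6.
TRAV6-6, TRAV6D-6, TRAV6D-7, TRAV6N-5 and TRAV6N-7: tgtgctctgggtga
TRAV6-1, TRAV6-2 and TRAV6D-5: tgtgTtctgggtga
TRAV6-4 and TRAV6D-4: tgtgctctggTtga
TRAV6-5: tgtgctctgAgtga
TRAV6N-6: tgCgctctgAgtga
TRAV6D-3: tgtgctAtgAgtga
TRAV6-3: tgtgctAtgAgAga
The end of TRAV6-6 reads Cys-Ala-Leu-Gly. The 5 genes with this end accounted for 43 of the 81 cells, and the 27 clonotypes with a CDR3 starting CALG made up 37.0% of the 73. Over whole transcripts the pairs of genes were 73.0% to 100% identical (median 78.5%, 91 pairs). TRAV6D-6 equals TRAV6-6 over all 344 bases, and TRAV6D-7 equals TRAV6N-7 over all 358, so a contig given to TRAV6-6 or TRAV6N-7 could as well come from the D copy. TRAV6D-3 and TRAV6-3 differ at 1 of 347 aligned bases and TRAV6N-5 and TRAV6-5 at 4 of 338.

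TRAV6 chains took up a larger share of the cells of the no uveitis dataset than of either uveitis dataset. Of the cells with a productive TRA, 11 of 186 (5.91%, interval 2.99% to 10.3%) carried a TRAV6 chain in uveitis dataset 1 and 17 of 330 (5.15%, 3.03% to 8.12%) in uveitis dataset 2, against 53 of 483 (11.0%, 8.33% to 14.1%) in the no uveitis dataset. The interval of the no uveitis dataset lay just above that of uveitis dataset 2 and overlapped that of uveitis dataset 1. It also overlapped that of uveitis dataset 2 when only the TRA with the most UMIs of each cell was counted (44 of 483 cells, 9.11%, 6.70% to 12.0%, without uveitis against an unchanged 5.15%), when at least 2 UMIs were required, and in cells with 1 TRA and 1 TRB. The uveitis mean was 5.53% ± 0.539 (SD, n = 2 pools).

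Counted by clonotypes, where a pair of chains weighs the same however many of its cells were caught, the distance between the datasets was smaller. TRAV6 made up 10 of 154 clonotypes (6.49%, 3.16% to 11.6%) in uveitis dataset 1 and 12 of 155 (7.74%, 4.06% to 13.1%) in uveitis dataset 2, with a mean of 7.12% ± 0.883 (SD, n = 2 pools). It made up 51 of 473 (10.8%, 8.13% to 13.9%) in the no uveitis dataset, and all 3 intervals overlapped. With only the TRA with the most UMIs of each cell, TRAV6 made up 10 of 138, 12 of 142 and 42 of 411 in the same order. By clonotypes TRAV6 was at rank 5 in uveitis dataset 1, rank 4 in uveitis dataset 2 and rank 2 without uveitis among the V families, and TRAV7 was ahead of it in each.

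**Figure D1:**
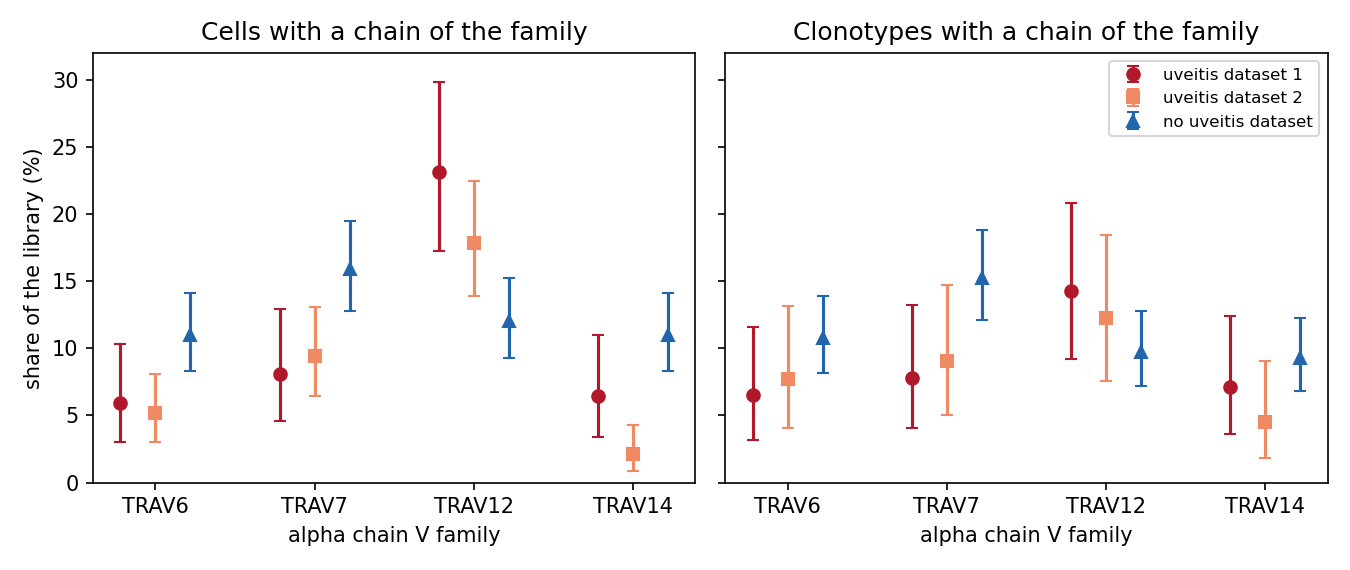
Share of cells (left) and of clonotypes (right), in percent on the vertical axis, with an alpha chain of the TRAV6, TRAV7, TRAV12 or TRAV14 family; points are libraries and bars are exact 95% binomial intervals. TRAV6 stands at 5.91%, 5.15% and 11.0% of cells, and the uveitis datasets have TRAV12 at 23.1% and 17.9%.

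The other multi-copy families set beside it did not all order the datasets in the same way. TRAV7 was found in 8.06% and 9.39% of the cells of the uveitis datasets and in 15.9% without uveitis, and TRAV14 in 6.45%, 2.12% and 11.0%. TRAV12 had the opposite order, with 23.1% and 17.9% against 12.0%. TRAV6 and TRAV14 were each found in 53 cells of the no uveitis dataset, from 51 TRAV6 clonotypes and 44 TRAV14 clonotypes.

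The share of TRAV6 cells that belonged to expanded clones ran from 3.85% without uveitis to 47.1% in uveitis dataset 2, each below that of the other chains. In the no uveitis dataset 2 of 52 paired TRAV6 cells (3.85%, 0.469% to 13.2%) were in an expanded clonotype, against 101 of 496 paired chains of all other V genes (20.4%, 16.9% to 24.2%). In uveitis dataset 1 the numbers were 2 of 11 (18.2%, 2.28% to 51.8%) against 54 of 184 (29.3%, 22.9% to 36.5%). In uveitis dataset 2 they were 8 of 17 (47.1%, 23.0% to 72.2%) against 232 of 334 (69.5%, 64.2% to 74.4%). The intervals were apart in the no uveitis dataset and overlapped in both uveitis datasets. Without uveitis they overlapped as well when TRAV6-7-DV9 was included (9 of 75, 12.0%, 5.64% to 21.6%, against 19.9%, 16.4% to 23.8%), when only the TRA with the most UMIs was counted and in cells with 1 TRA and 1 TRB. In such cells of uveitis dataset 1 the order was the opposite, with 33.3% of 6 TRAV6 cells against 30.5%. In uveitis dataset 2 they were apart with TRAV6-7-DV9 included (8 of 22, 17.2% to 59.3%, against 70.5%, 65.3% to 75.4%) and without the largest TRAV6 clonotype (4 of 13, 9.09% to 61.4%, against 69.5%, 64.2% to 74.4%). Such differences were also found for other families. For TRAV7 without uveitis it was 6 of 75 (2.99% to 16.6%) against 20.6% (17.0% to 24.5%) of all other chains. For TRAV14 it was 0 of 11 and 0 of 7 in the uveitis datasets, which allows up to 27.3% and 42.9%, against 30.4% and 69.8%. Cells of a clone are not independent, which these intervals do not cover. The uveitis mean of TRAV6 was 32.6% ± 20.4 (SD, n = 2 pools).

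There were 5 expanded TRAV6 clonotypes, and none had more than 4 cells, while the largest clonotypes of any kind had 12, 37 and 18 cells. Their CDR3α sequences are shown because they are the TRAV6 chains seen repeatedly. Capitals mark bases that neither the germline V end nor the J gene accounts for.
TRAV6-4 TRAJ23, uveitis dataset 1: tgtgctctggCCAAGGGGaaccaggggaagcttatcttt
TRAV6N-6 TRAJ13, uveitis dataset 2: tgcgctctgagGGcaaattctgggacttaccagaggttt
TRAV6-6 TRAJ21, uveitis dataset 2: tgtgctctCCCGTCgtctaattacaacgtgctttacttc
TRAV6-6 TRAJ31, uveitis dataset 2: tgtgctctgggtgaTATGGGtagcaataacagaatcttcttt
TRAV6-6 TRAJ44, no uveitis dataset: tgtgctctggCCTttact
Their loops as listed are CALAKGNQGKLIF, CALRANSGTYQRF, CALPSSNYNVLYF, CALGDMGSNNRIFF and CALAFT. The last holds 5 bases matched to TRAJ44, too few to read its frame. The TRAV6N-6 clonotype had 4 cells, which is 1.21% of the cells of its dataset, and the others had 2 cells each.

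The TRAV6N-6 TRAJ13 clonotype of uveitis dataset 2 was accompanied by a near copy made from other bases. In its 4 cells the alpha chain had 4, 9, 4 and 4 UMIs and was paired with TRBV20 TRBJ2-2 and the CDR3β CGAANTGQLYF. A further cell, with 25 UMIs for the alpha chain and 57 for the beta chain, had the same CDR3α amino acids by the base change G12A, counted from the first base of the CDR3, and the CDR3β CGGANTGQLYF by the changes C8G and C9G. Below, capitals mark the bases that differ.
CDR3β of the 4 cells: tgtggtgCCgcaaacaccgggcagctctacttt
CDR3β of the further cell: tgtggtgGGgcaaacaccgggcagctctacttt
The 5 cells thus shared V genes, J genes, the CDR3α protein and the length of CDR3β, and by their bases they held 2 versions of each chain.

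The other 4 expanded clonotypes had low to moderate counts. The TRAV6-4 clonotype of uveitis dataset 1 had 5 alpha chain UMIs in each cell and 18 and 10 beta chain UMIs, with TRBV23 and TRBJ2-1. The TRAV6-6 TRAJ21 clonotype of uveitis dataset 2 had 9 and 7 alpha chain UMIs and paired with TRBV13-1 and TRBJ2-1. The TRAV6-6 TRAJ31 clonotype had 1 and 2 alpha chain UMIs, the lowest of the 5, and 6 and 4 for its TRBV13-2 chain. That same TRBV13-2 TRBJ2-1 chain was found, base for base, in 2 further cells that carried TRAV7N-4 with TRAJ31 and the CDR3α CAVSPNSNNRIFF. The beta chain was hence joined with TRAJ31 in all 4 cells, under a TRAV6 gene in 2 of them and a TRAV7 gene in the other 2.

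The TRAV6-6 TRAJ44 clonotype without uveitis had a CDR3α of 6 residues as listed, with 11 and 6 UMIs, paired with TRBV5 and TRBJ2-7. Listed lengths of TRAJ44 loops fell into 2 sets. Of 17 productive TRAJ44 contigs of any V gene, 11 had a listed CDR3 of 6 residues or fewer and the other 6 had at least 14. Both TRAV6 contigs with TRAJ44 were of the short kind.

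The family was spread over many of its genes, with TRAV6-6 the most used. TRAV6-6 (chr14:53516929-53517366), the member nearest to the J genes, was found in 34 cells and 31 clonotypes, followed by TRAV6N-6 (chr14:53132679-53133137) with 10 cells and 7 clonotypes and TRAV6N-5 (chr14:53104871-53105344) with 8 cells and 7 clonotypes. By listed name these 3 genes were the ones found in all 3 datasets. The 1 TRAV6N-6 contig of uveitis dataset 1 matched the TRAV6N-6 end for 2 bases and another end for 14, so its name is in doubt. TRAV6-3 had 6 cells, TRAV6-2, TRAV6-4 and TRAV6D-4 had 4 each, TRAV6-5 and TRAV6D-3 had 3, TRAV6-1 and TRAV6D-5 had 2 and TRAV6N-7 had 1. TRAV6D-6 and TRAV6D-7 were named in no cell, and they are the copies identical to TRAV6-6 and TRAV6N-7.

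**Figure D2:**
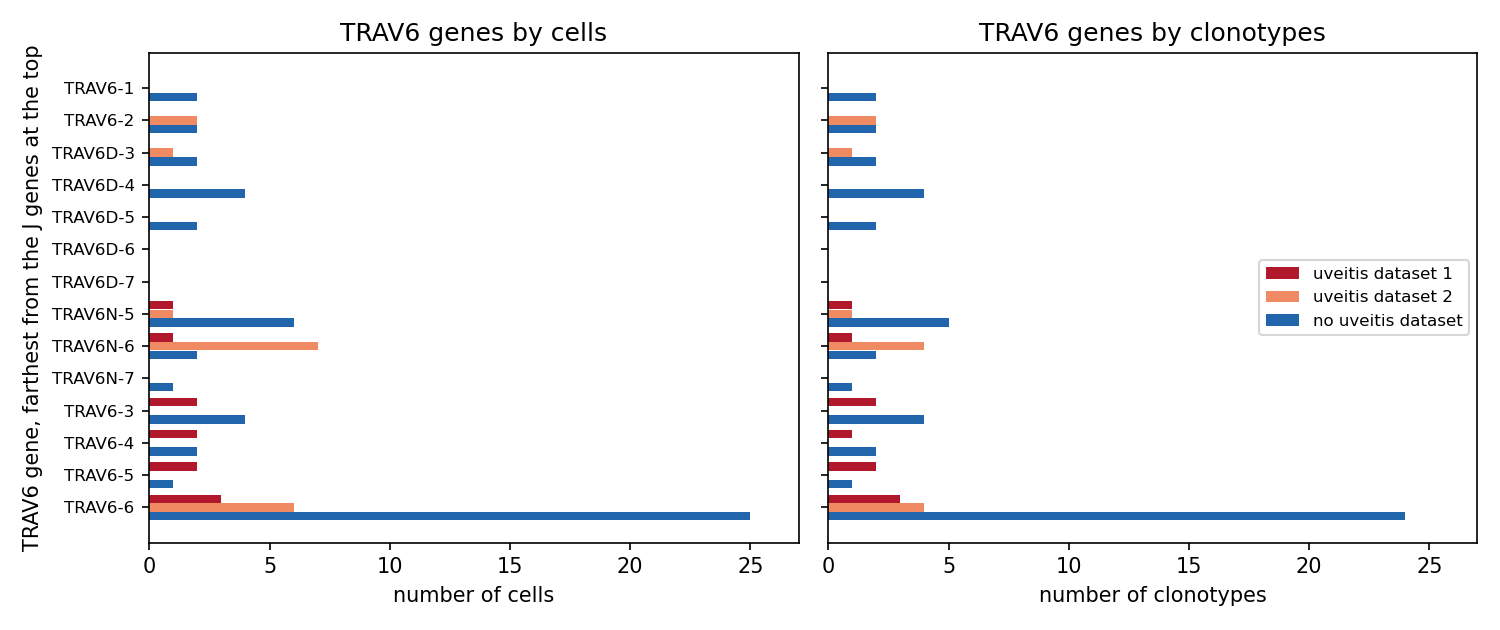
Number of cells (left) and clonotypes (right) on the horizontal axes for each of the 14 annotated TRAV6 genes, in their order along the chromosome with the gene farthest from the J genes at the top; bars are libraries. By listed name TRAV6-6 has 25 cells without uveitis and TRAV6N-6 has 7 in uveitis dataset 2, which come from 4 clonotypes.

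The leading gene differed between the datasets by cells but rested on small numbers in those with uveitis. TRAV6-6 was found in 25 of 53 TRAV6 cells (47.2%, 33.3% to 61.4%) without uveitis, 3 of 11 (27.3%, 6.02% to 61.0%) in uveitis dataset 1 and 6 of 17 (35.3%, 14.2% to 61.7%) in uveitis dataset 2. TRAV6N-6 was found in 7 of 17 cells (41.2%, 18.4% to 67.1%) of uveitis dataset 2, 1 of 11 of uveitis dataset 1 and 2 of 53 (3.77%, 0.460% to 13.0%) without uveitis. The intervals of TRAV6N-6 in uveitis dataset 2 and without uveitis were apart by cells. By clonotypes it was 4 of 12 (33.3%, 9.92% to 65.1%) against 2 of 51 (3.92%, 0.478% to 13.5%), and these intervals overlapped. Of the 7 cells, 4 are the expanded clonotype and 1 is its near copy. A further 1 of the 7 has a CDR3 that starts like another V gene, as has the 1 cell of uveitis dataset 1.

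By block and listed name, unlettered copies of the repeated genes (TRAV6-3 to TRAV6-6) made up 31 of 51 clonotypes (60.8%, 46.1% to 74.2%) without uveitis. They made up 8 of 10 (80.0%, 44.4% to 97.5%) in uveitis dataset 1 and 4 of 12 (33.3%, 9.92% to 65.1%) in uveitis dataset 2. D copies were found in 8, 0 and 1 clonotypes in the same order, and N copies in 8, 2 and 5. For uveitis dataset 1 a count of 0 among 10 clonotypes allows a share of up to 30.0%. TRAV6-1 and TRAV6-2, which have no lettered copy, gave 4, 0 and 2 clonotypes.

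The name of a gene and the start of the CDR3 did not always go together. In 5 of the 81 contigs (6.17%) the CDR3 started like another V gene for at least 5 bases more than like the named one. Among contigs of other V genes for which a germline end was found, 18 of 888 (2.03%) did so. These 5 are shown because their gene name is in doubt, and capitals mark the bases that match the better-fitting gene end.
TRAV6N-6 TRAJ23, uveitis dataset 2: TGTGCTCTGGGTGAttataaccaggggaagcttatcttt
TRAV6N-6 TRAJ49, uveitis dataset 1: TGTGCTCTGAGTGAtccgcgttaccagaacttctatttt
TRAV6-5 TRAJ24, uveitis dataset 1: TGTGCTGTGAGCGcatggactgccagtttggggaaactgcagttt
TRAV6D-3 TRAJ49, no uveitis dataset: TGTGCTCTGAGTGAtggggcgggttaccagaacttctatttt
TRAV6N-7 TRAJ42, no uveitis dataset: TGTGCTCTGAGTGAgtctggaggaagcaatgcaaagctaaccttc
The first starts with the end shared by TRAV6-6 and TRAV6N-5. The second, the TRAV6D-3 and the TRAV6N-7 contig start with an end shared by TRAV6-5, the delta-shared TRAV6-7-DV9 and 6 TRAV12 genes. All had 5 UMIs or fewer.

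The TRAV6-5 TRAJ24 contig of uveitis dataset 1 matched its own germline end for 6 bases and that of TRAV9-1 for 13. The same CDR3α, base for base, was listed in 2 further cells of that dataset under TRAV9-1, with a different TRBV19 chain. Its own cell held 5 UMIs of it and 5 UMIs of a TRAV7-5 chain. Without the 5 contigs TRAV6 made up 4.86% of cells in uveitis on average rather than 5.53%, and 6.20% of clonotypes rather than 7.12%.

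Joins of TRAV6 genes were made with J genes from across the J region and kept much of the germline V end. In 67 clonotypes whose ends could be read, a median of 12 of the 14 V bases was kept, and 26 kept all 14. A median of 2 bases (range 0 to 8) was inserted and 3 (0 to 14) were trimmed from the J gene. The medians of inserted bases were 2.5, 3 and 2 in uveitis datasets 1 and 2 and the no uveitis dataset. Bases matching by chance were assigned to the genes, so insertions are counted low.

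In 10 of these clonotypes no inserted base was needed, 8 of them without uveitis. They are made of germline letters alone, and examples from 3 different V genes are shown, in which no base is capitalised because none was inserted.
TRAV6N-5 TRAJ21, uveitis dataset 1: tgtgctctgggttacaacgtgctttacttc
TRAV6D-3 TRAJ6, uveitis dataset 2: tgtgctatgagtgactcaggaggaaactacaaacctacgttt
TRAV6N-6 TRAJ23, no uveitis dataset: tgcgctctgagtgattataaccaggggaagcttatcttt
No CDR3α of a TRAV6 chain, by bases or by amino acids, was found in more than 1 dataset, also not under another V gene. There were 74 distinct nucleotide and 72 distinct amino acid sequences among the 81 contigs.

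A recurrence within a dataset across genes was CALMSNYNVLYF without uveitis, once under TRAV6-6 with 10 UMIs and once under TRAV6N-5 with 3 UMIs, both with TRAJ21. Their bases differ by C9T, from the TRAV6N-5 to the TRAV6-6 contig and counted from the first base of the CDR3. The beta chains were unrelated, TRBV17 with TRBJ1-5 in the first and TRBV31 with TRBJ1-3 in the second.
TRAV6N-5 TRAJ21: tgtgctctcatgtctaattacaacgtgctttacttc
TRAV6-6 TRAJ21: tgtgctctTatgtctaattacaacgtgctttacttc

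J gene use was broad: 31 TRAJ genes were joined to TRAV6, 14 of them in a lone clonotype, and 58 different V and J combinations were seen. Over all datasets the most used were TRAJ21 and TRAJ23, each in 6 of 73 clonotypes (8.22%, 3.08% to 17.0%), followed by TRAJ31 in 5 (6.85%, 2.26% to 15.3%). In clonotypes of other V genes TRAJ21 was used in 2.96%, TRAJ23 in 5.08% and TRAJ31 in 8.32%, all within those intervals except that TRAJ21 lay just below its lower bound. TRAJ21 (chr14:54198790-54198846) was used in all 3 datasets, with 6 different TRBV genes, and was joined to TRAV6-6 in 4 clonotypes and to TRAV6N-5 in 2.

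Without uveitis 25 TRAJ genes were used, and 9 of them were in 3 or more clonotypes. TRAJ9, TRAJ23, TRAJ30 and TRAJ37 were used in 4 of 51 clonotypes each (7.84%, 2.18% to 18.9%), and TRAJ17, TRAJ21, TRAJ38, TRAJ39 and TRAJ42 in 3 each (5.88%, 1.23% to 16.2%). The shares of these 9 in clonotypes of other V genes of that dataset ran from 1.18% for TRAJ17 to 5.69% for TRAJ37. Those of TRAJ9 (1.42%), TRAJ30 (2.13%) and TRAJ17 lay below the TRAV6 interval, and the rest lay within it. The 9 were picked by their use in TRAV6 clonotypes, which favours larger shares. All 4 joins to TRAJ37 were of TRAV6-6, while the 4 joins to TRAJ30 were of TRAV6-3, TRAV6D-3, TRAV6D-5 and TRAV6N-5.

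J genes joined to TRAV6 lay a median of 37.3 kb (middle range 25.6 to 46.8 kb, 73 clonotypes) downstream of the first J gene, and those of other V genes 32.9 kb (22.9 to 43.8 kb, 709 clonotypes). The J region spans 63.8 kb and the TRAV6 genes start 638 kb upstream of it and reach to 1516 kb. By listed gene name, the median for unlettered copies was 32.9 kb in 43 clonotypes, and for the more distant TRAV6-1, TRAV6-2, D and N copies it was 41.1 kb in 30. Of the 43, 31 are listed as TRAV6-6, whose transcript equals that of the more distant TRAV6D-6, so their place is not certain. The direction was the same without uveitis (32.9 kb against 38.0 kb) and in uveitis dataset 2 (38.3 kb against 50.7 kb) and was the opposite in uveitis dataset 1 (40.1 kb in 8 clonotypes against 28.7 kb in 2).

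**Figure D3:**
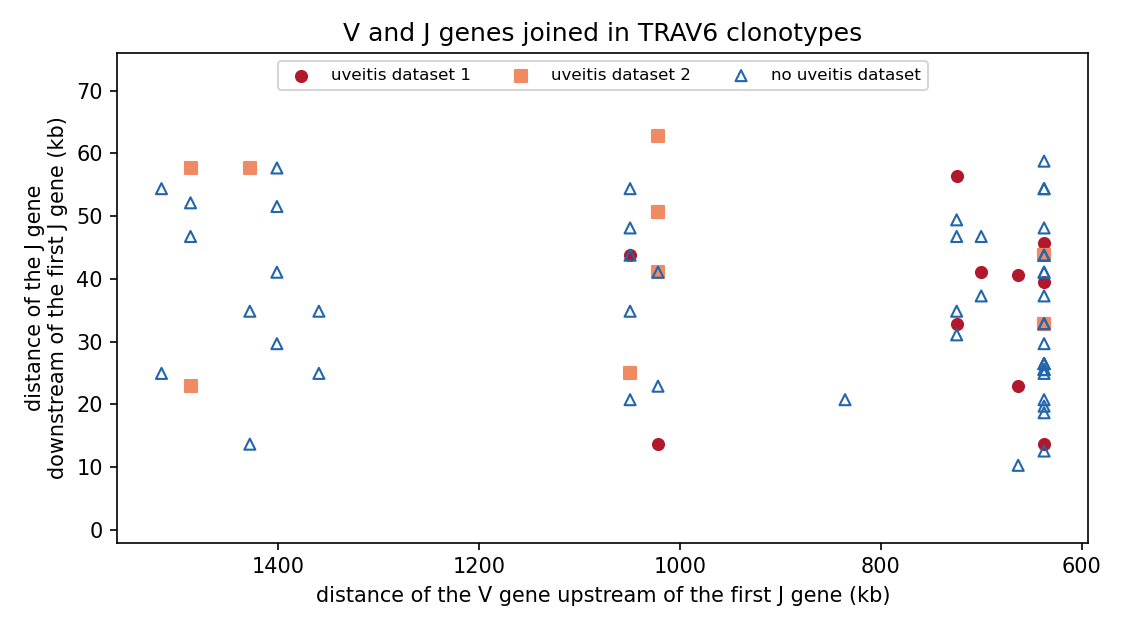
Each point is a TRAV6 clonotype, placed by the distance of its V gene upstream of the first J gene (horizontal axis, kb, nearest at the right) and of its J gene downstream of the first J gene (vertical axis, kb); symbols are libraries. J genes from 10.3 to 62.8 kb were used, and the column at 638 kb is TRAV6-6, by name, whose 31 clonotypes used 18 different J genes.

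CDR3α loops of TRAV6 chains averaged 13 to 14 residues, as did those of the other chains. By clonotypes, and without listed loops of 6 residues or fewer, the mean was 13.1 ± 1.52 residues (SD among 10 clonotypes) in uveitis dataset 1, 13.3 ± 1.15 (12 clonotypes) in uveitis dataset 2 and 13.7 ± 1.25 (50 clonotypes) without uveitis. For other alpha chains the means were 13.6 ± 1.19, 13.6 ± 1.11 and 13.6 ± 1.52. With the short TRAJ44 clonotype the TRAV6 mean without uveitis was 13.6 ± 1.64, and with their short loops those of the other chains were 13.4, 13.6 and 13.5. Of the 73 loops, 54 started CAL, 7 CVL and 7 CAM, the starts that the germline ends encode, and 5 started otherwise.

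In 2 of the 79 TRAV6 contigs whose J gene could be read (2.53%), the J gene was in another frame than the one that continues into the constant region, though the contigs were listed as productive. They were TRAV6-3 TRAJ7 with the CDR3α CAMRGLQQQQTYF (2 UMIs, uveitis dataset 1) and TRAV6N-5 TRAJ16 with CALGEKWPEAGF (5 UMIs, no uveitis dataset). Each was in a cell with a second TRA. Of the other alpha chains 1 of 1034 (0.0967%) was of this kind.

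Beta chain partners of TRAV6 included 18 TRBV genes. TRBV4 and TRBV5 took larger shares than in clonotypes of other alpha chains over all datasets and without uveitis, but not in uveitis dataset 2. The genes named here were picked by their use in TRAV6 clonotypes, which favours larger shares. Over all datasets TRBV5 and TRBV13-2 were each paired with 10 of 73 TRAV6 clonotypes (13.7%, 6.77% to 23.8%) and TRBV4 with 8 (11.0%, 4.85% to 20.5%). In the 709 clonotypes of other alpha chains the shares were 7.76% for TRBV5, 12.6% for TRBV13-2 and 4.37% for TRBV4. The share of TRBV4 in other clonotypes lay below the interval, and those of TRBV5 and TRBV13-2 lay within it.

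Without uveitis TRBV5 was in 8 of 51 TRAV6 clonotypes (15.7%, 7.02% to 28.6%) against 6.87% of 422 others, and TRBV4 in 6 (11.8%, 4.44% to 23.9%) against 2.13%. TRBV13-2 and TRBV3 were also in 6 clonotypes each, against 11.6% and 9.48% of the others. TRBV2 and TRBV19 were in 4 each, and TRBV16 and TRBV20 in 3 each, with shares of 5.45% to 8.06% in the others. Genes in fewer than 3 clonotypes went either way. TRBV13-3 was in 0 of 51 against 5.69% and TRBV26 in 1 of 51 (1.96%) against 7.11%, while TRBV17 was in 2 of 51 (3.92%) against 0.474%. In uveitis dataset 1 TRBV4 was in 2 of 10 TRAV6 clonotypes against 2.78% of others, and in uveitis dataset 2 it was in none of 12, which allows a share of up to 25.0%, against 12.6% of others. TRBV5 was in 1 of 10 TRAV6 clonotypes of uveitis dataset 1 against 8.33% of others, and in 1 of 12 of uveitis dataset 2 (8.33%) against 9.79%.

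**Figure D4:**
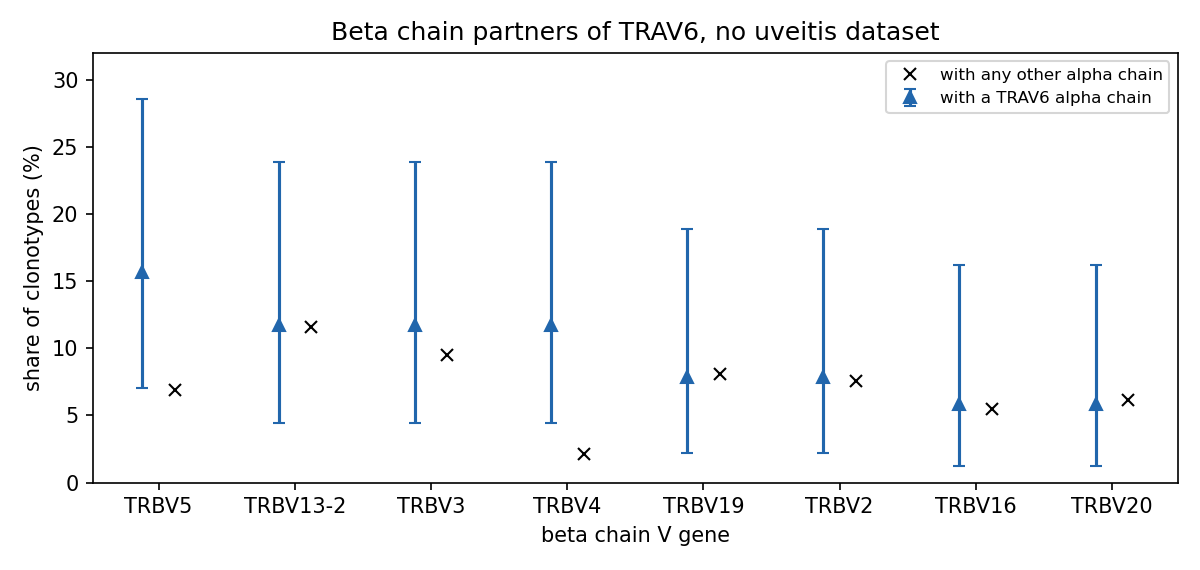
Share of clonotypes of the no uveitis dataset, in percent on the vertical axis, for the TRBV genes paired with 3 or more TRAV6 clonotypes; triangles are clonotypes with a TRAV6 chain (51, bars are exact 95% binomial intervals) and crosses are clonotypes with any other alpha chain (422). TRBV4 and TRBV5 are the genes whose cross lies below the interval.

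The TRBV4 and TRBV5 pairings were spread over several genes. They were counted by distinct clonotypes, so repeated cells of a receptor could not enter these counts. The 8 TRBV4 clonotypes used 4 TRAV6 genes, 8 different TRAJ and 8 different TRBJ genes. The 10 TRBV5 clonotypes used 7 TRAV6 genes, 9 TRAJ and 7 TRBJ genes. In all, 51 combinations of a TRAV6 gene with a TRBV gene were seen among 73 clonotypes.

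Among TRBJ genes, TRBJ2-7 was used in 14 of the 73 clonotypes (19.2%, 10.9% to 30.1%) and TRBJ2-1 in 11 (15.1%, 7.77% to 25.4%), against 20.0% and 11.8% of clonotypes of other alpha chains. TRBJ2-5 was in 6 (8.22%, 3.08% to 17.0%) against 17.3%, just above the interval. By dataset TRBJ2-5 was in 3 of 10 TRAV6 clonotypes of uveitis dataset 1 against 21.5% of others, in 0 of 12 of uveitis dataset 2 against 14.7% and in 3 of 51 without uveitis (5.88%) against 16.8%. Genes of the TRBJ2 cluster were used in 47 clonotypes and genes of the TRBJ1 cluster in 26.

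The median numbers of UMIs of TRAV6 contigs were close to those of other alpha chains. The median was 5 (range 1 to 9, 11 contigs) in uveitis dataset 1, 4 (1 to 25, 17 contigs) in uveitis dataset 2 and 7 (1 to 27, 53 contigs) without uveitis. The medians of the other alpha chains were 5, 4.5 and 7. The beta chains of the TRAV6 cells had medians of 11, 12 and 14.5 UMIs. By gene the medians ran from 1 for the lone TRAV6N-7 contig and 2 for TRAV6D-3 to 10 for TRAV6-1.

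Contigs resting on 1 UMI were more frequent in TRAV6 without uveitis, with 7 of 53 (13.2%, 5.48% to 25.3%) against 12 of 508 of the other alpha chains (2.36%, 1.23% to 4.09%). In the uveitis datasets the numbers were 1 of 11 and 1 of 17, against 8.25% and 7.65%. All 9 were the sole TRA of their cell, as were all 54 such contigs of the other alpha chains, and 5 of the 9 were TRAV6-6. The other 4 were 1 each of TRAV6D-3, TRAV6D-5, TRAV6N-6 and TRAV6N-7. With at least 2 UMIs required of every alpha chain, TRAV6 was in 5.92% and 5.28% of the cells of the uveitis datasets and in 9.91% without uveitis.

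A second productive alpha chain was found beside TRAV6 in 22 of 81 cells (27.2%, 17.9% to 38.2%), against 21.7% of the other alpha chains. By dataset it was found in 4 of 11 TRAV6 cells of uveitis dataset 1 (36.4%, 10.9% to 69.2%) against 17.5% of other chains and in 4 of 17 of uveitis dataset 2 (23.5%, 6.81% to 49.9%) against 14.7%. Without uveitis the order was the opposite, with 14 of 53 (26.4%, 15.3% to 40.3%) against 142 of 508. The TRAV6 chain had fewer UMIs than its companion in none of the 8 uveitis cells and in 9 of the 14 cells without uveitis, and it had the same number in 3 and 1. Of other alpha chains in cells with more than 1, 19 of 34 and 27 of 50 ranked lower by UMIs in uveitis datasets 1 and 2. Without uveitis it was 69 of 142, and equal numbers were ranked by reads. These other chains include the companions of the TRAV6 chains, and ranking 2 chains of a cell always puts 1 lower. The counts are thus largely set in advance and are no separate reference for the TRAV6 chains. The TRAV6 contrast rests on 8 and 14 cells and was not tested. The number of UMIs on either side was low, with medians of 5.5 for the TRAV6 chain and 5 for the other.

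**Figure D5:**
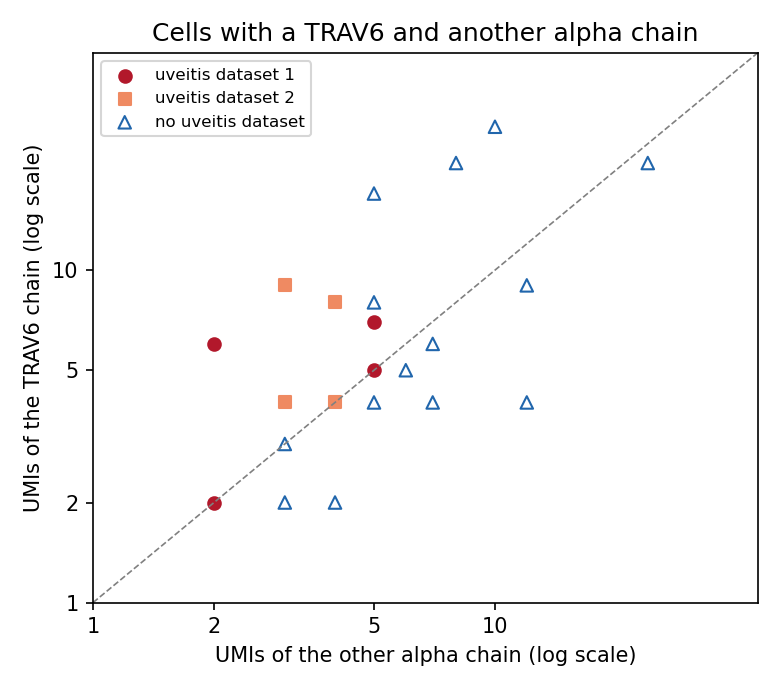
UMIs of the TRAV6 chain (vertical, log scale) against UMIs of the second alpha chain (horizontal, log scale) in the 22 cells that carried both; symbols are libraries and the dashed line marks equal numbers. All 8 uveitis cells lie on or above the line and 9 of the 14 cells without uveitis lie below it.

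TRAV6-6 accounted for 10 of these 22 cells and for 7 of the 9 in which TRAV6 had fewer UMIs. The companion was a TRAV9 chain in 6 cells, a TRAV7 chain in 5 and a TRAV12 chain in 2. In uveitis dataset 2 it was TRAV9 in 3 of 4 cells, among them a cell of the TRAV6N-6 TRAJ13 clonotype with 9 UMIs of TRAV6N-6 and 3 of TRAV9D-1. The other 3 cells of that clonotype listed TRAV6N-6 as the sole productive alpha chain.

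Some beta chains of TRAV6 cells were also found, base for base, in cells of the same dataset without a TRAV6 chain. This held for 4 of 10 TRAV6-paired beta chains in uveitis dataset 1 (40.0%, 12.2% to 73.8%), 1 of 12 in uveitis dataset 2 (8.33%, 0.211% to 38.5%) and 5 of 51 without uveitis (9.80%, 3.26% to 21.4%). In uveitis dataset 1 the TRBV5 chain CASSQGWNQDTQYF was in a cell with TRAV6-3 (7 UMIs) and TRAV9-1 (5 UMIs), and 1 further cell with that beta chain listed the same TRAV9-1 chain alone. The same held without uveitis for a TRBV5 chain in a cell with TRAV6-6 (6 UMIs) and TRAV9-1 (7 UMIs). In the other 8 cases the cells without TRAV6 had an alpha chain not listed in the TRAV6 cell.

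Beta chains joined with more than 1 CDR3α, in the same or in different cells, were 5 of 10, 5 of 12 and 15 of 51 of those paired with TRAV6. Among the other beta chains they were 25 of 98 (25.5%), 20 of 115 (17.4%) and 59 of 340 (17.4%) in uveitis datasets 1 and 2 and the no uveitis dataset. The share was larger for beta chains paired with TRAV6 in each dataset. A beta chain was put in that group when any of its alpha chains was TRAV6. One with several CDR3α thus had more chances to enter it, so the comparison cannot show a trait of TRAV6. The difference was not tested. No step removed droplets that hold more than 1 cell, and their part in cells with several chains was not tested.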

How the data were processed

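The authors sequenced 10x 5′ TCR libraries of tetramer-sorted cells and assembled contigs with Cell Ranger (version 3 in the study's methods) against its GRCm38-based VDJ reference. Per contig, the deposited files give raw counts of UMIs and reads, and name its genes and CDR3. The mRNA libraries were not analysed here. Every productive TRA contig was counted and paired with the productive TRB of its cell that had the most UMIs. Germline ends and positions came from GENCODE M21 on GRCm38, matched by gene name, and may differ from the authors' reference. V bases of a CDR3 were matched from the cysteine, then J bases from the end, with at least 6 J bases required to read a frame. No test between conditions was made, and shares carry exact 95% intervals, with a count of 0 given the share of 3 counts. The counting of cells, clonotypes and expanded cells recovered 5 of 5 values on a simulated contig table. The matching to germline genes was not run on that table. Named J and TRBV partners are those of at least 3 TRAV6 clonotypes of a dataset or the 3 most used over all. Named clonotypes are the expanded ones and those with a CDR3α under more than 1 V gene or beta chain. Chains named for their gene name, frame, missing insertion, second alpha chain or shared beta chain were chosen after their values were seen. The family, lists and comparisons were chosen with earlier results of these data known. Alternatives were other rules for counting chains and clonotypes and each uveitis dataset left out. Python 3.11.15, pandas 2.3.3, SciPy 1.17.1 and Biopython 1.88 were used.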

Additional observations from a re-analysis of the deposited data

Results flagged for a closer look

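Contigs of TRAV6 genes that were not listed as productive were left out of all counts above, and their share of TRAV6 contigs was higher in both uveitis datasets than without uveitis. It was 2 of 13 (15.4%, interval 1.92% to 45.4%) in uveitis dataset 1 and 5 of 22 (22.7%, 7.82% to 45.4%) in uveitis dataset 2, against 2 of 55 (3.64%, 0.443% to 12.5%) without uveitis. All 3 intervals overlap, and the difference was not tested. For all other alpha chain V genes the shares were 20.8%, 6.85% and 15.5%. In uveitis dataset 2 a non-productive TRAV6-3 TRAJ15 contig was in 2 of the 4 cells of the TRAV6N-6 TRAJ13 clonotype, with 2 and 5 UMIs. A non-productive TRAV6-3 TRAJ40 contig, with 7 and 10 UMIs, was in 2 cells with a TRAV9-1 chain of the same CDR3α amino acids and different TRBV31 chains.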

How the results depend on the processing

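Of 122 recomputed values of the shares of cells, clonotypes and expanded cells, 111 stayed within their interval (single datasets) or within 1 SD (uveitis mean). This count includes values that could hardly move. Counting only full length contigs repeated the main values, as did merging D and N copies. Leaving out 1 of 2 pools always stays within 1 SD of their mean. Including the gene shared with the delta locus, TRAV6-7-DV9, gave 15.7% of cells and 14.4% of clonotypes without uveitis and means of 7.63% and 10.4% with uveitis, and it took the expanded share without uveitis from 3.85% to 12.0%. With only cells of 1 TRA and 1 TRB the uveitis means were 4.46% of cells and 5.93% of clonotypes. Leaving out the contigs in doubt by their CDR3 start, an alternative chosen after seeing the data, gave 4.86% and 6.20%. Without the largest TRAV6 clonotype of each dataset the uveitis mean was 4.43% of cells, and the expanded share was 0% in uveitis dataset 1 (0 of 9 cells) and 0% without uveitis (0 of 50), while it was 30.8% rather than 47.1% in uveitis dataset 2, for a uveitis mean of 15.4% rather than 32.6%. Leaving out either uveitis dataset gave means of 5.15% to 5.91% of cells, 6.49% to 7.74% of clonotypes and 18.2% to 47.1% of TRAV6 cells expanded. Of 87 values for single genes, lengths, UMIs and partners, 86 stayed in range. Leaving out the chains with J in another frame, also added after seeing the data, moved none of the shares out of range. No paired analysis was possible because the no uveitis dataset is 1 library, so the groups share fewer than 2 replicate numbers. The 11 and 17 TRAV6 cells of the uveitis datasets limit every share within the family, and pools of mice give no spread between animals.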

Other observations

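Some TRAV6 loops of different clonotypes were near each other. Among TRAV6 CDR3α of equal length, 5 pairs differed at 1 residue, and 2 of these pairs were between datasets. With TRAJ23, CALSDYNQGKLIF (no uveitis dataset, TRBV1) and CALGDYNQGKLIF (uveitis dataset 2, TRBV13-3) differed by 2 bases. The second is listed as TRAV6N-6 but starts with the germline end of TRAV6-6. With TRAJ40, a TRAV6N-6 loop without uveitis and a TRAV6-5 loop of uveitis dataset 1 differed at 6 bases. The beta chains used different TRBV genes in all 5 pairs.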
